A study of Mus musculus with 6 samples.

Results

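The S100 calcium-binding proteins were followed through 10 genes, S100b, S100a1, S100a4, S100a6, S100a8, S100a9, S100a10, S100a11, S100a13 and S100a16. They were chosen by name: the members are the rows of the deposited count table whose Ensembl identifier carries 1 of these symbols, 10 of 54838 rows. The rule itself uses no measured value, but the set of names was drawn up with earlier results of these data known. It leaves out other S100 genes, of which 4 were tested and 2 were called lower. RNA of mouse sciatic nerve at postnatal day 3 was sequenced in 6 libraries of strain C57 Bl, 3 from wild-type nerves (WT) and 3 from nerves of genotype CnpCre Actl6afl/fl, called cKO here. In the latter, Cre recombinase under the control of Cnp, a gene of myelinating glia, is meant to delete the floxed gene for the chromatin remodelling subunit Actl6a. Other cells of the nerve are meant to keep it, and the labels do not give the extent of deletion in any cell type. The labels give neither Cre nor floxed alleles to the WT group, so an effect of either and of the deletion cannot be told apart. Whether nerves were pooled or each library is 1 animal is not stated, so the p-values measure only the spread between these libraries, which may be technical.

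S100 proteins are small EF-hand proteins that mostly form dimers and, on binding calcium, open a surface that holds target proteins. They have no enzyme activity of their own; some act inside the cell on the cytoskeleton and membranes, and some are released and bind the receptors Ager (RAGE) and Tlr4. In peripheral nerve S100b is the classical marker of Schwann cells, the glia that ensheath and myelinate axons, while S100a8 and S100a9, which together form calprotectin, are abundant in neutrophils.

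S100b lies on chromosome 10 and the other 9 members lie within 3053.6 kilobases of chromosome 3 (GRCm38, 90511034 to 93564643). RefSeq start-site windows of 300 bases, from 250 bases before to 50 bases after the start (build GRCm38.p6), matched 9 of the 10 members, S100a10 being the exception. The sequences shown are those of the 4 members whose level passed the test of genotype, and of S100a13, which shares its start region with S100a1. The windows of S100b (chr10:76253586-76253885, plus strand), S100a1 (chr3:90514281-90514580, minus strand), S100a13 (chr3:90514185-90514484, plus strand), S100a11 (chr3:93520246-93520545, plus strand) and the second start of S100a16 (chr3:90540896-90541195, plus strand) read 5′ to 3′ as follows.
S100b: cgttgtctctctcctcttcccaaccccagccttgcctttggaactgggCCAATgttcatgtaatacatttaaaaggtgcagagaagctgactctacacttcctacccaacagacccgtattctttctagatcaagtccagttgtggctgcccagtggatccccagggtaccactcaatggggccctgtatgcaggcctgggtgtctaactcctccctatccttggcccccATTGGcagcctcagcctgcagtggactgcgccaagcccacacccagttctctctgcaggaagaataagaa
S100a1: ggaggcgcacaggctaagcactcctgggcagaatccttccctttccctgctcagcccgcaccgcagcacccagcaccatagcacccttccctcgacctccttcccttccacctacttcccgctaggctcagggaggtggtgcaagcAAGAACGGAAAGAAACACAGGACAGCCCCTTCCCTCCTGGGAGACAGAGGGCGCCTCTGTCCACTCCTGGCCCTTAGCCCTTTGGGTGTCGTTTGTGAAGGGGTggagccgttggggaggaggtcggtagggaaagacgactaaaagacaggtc
S100a13: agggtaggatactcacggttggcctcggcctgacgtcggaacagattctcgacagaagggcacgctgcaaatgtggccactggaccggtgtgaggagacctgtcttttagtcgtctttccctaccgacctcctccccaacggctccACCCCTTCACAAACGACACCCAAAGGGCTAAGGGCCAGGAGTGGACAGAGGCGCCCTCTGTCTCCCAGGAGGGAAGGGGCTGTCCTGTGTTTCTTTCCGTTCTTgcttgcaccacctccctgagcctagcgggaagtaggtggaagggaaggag
S100a11: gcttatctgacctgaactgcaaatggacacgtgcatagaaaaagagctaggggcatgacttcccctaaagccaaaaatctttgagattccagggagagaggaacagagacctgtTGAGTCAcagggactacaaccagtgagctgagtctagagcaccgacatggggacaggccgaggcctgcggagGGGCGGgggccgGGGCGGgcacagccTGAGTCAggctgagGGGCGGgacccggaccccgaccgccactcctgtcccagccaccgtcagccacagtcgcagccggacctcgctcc
S100a16: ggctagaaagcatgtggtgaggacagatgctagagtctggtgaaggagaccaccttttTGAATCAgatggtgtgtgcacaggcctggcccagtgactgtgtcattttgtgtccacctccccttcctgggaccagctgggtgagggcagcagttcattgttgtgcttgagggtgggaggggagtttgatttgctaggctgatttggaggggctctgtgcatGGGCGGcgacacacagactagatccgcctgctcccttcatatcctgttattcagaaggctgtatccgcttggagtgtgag

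Capitals in the S100b window mark the letters CCAAT, the CCAAT box, at -202 and, on the opposite strand, at -20 relative to the start. Capitals in the S100a1 and S100a13 windows mark the same 104 bases, read on opposite strands, which lie between their RefSeq starts (90514330 and 90514435). By these starts both genes are transcribed away from this stretch, and the windows share 204 bases. The S100a1 gene model used for counting reaches to 90514392, inside the stretch. In S100a11 and S100a16 they mark GGGCGG, the GC box, and TGANTCA, a loose form of the AP-1 site that allows any central base. S100a11 holds 3 of the former and 2 of the latter, S100a16 holds 1 of each. The S100a11 matches read TGAGTCA. That of S100a16 reads TGAATCA and lacks the central C or G of the usual AP-1 site. Searched on both strands of all 32851 windows, the CCAAT box was found in 37.4%, the GC box in 35.7% and the loose form TGANTCA in 7.81%. The letters of the TATA box, TATAAA, were in 13.6% of windows, and among the members in those of S100a4, S100a8 and S100a9. They began at -31 in S100a4 and at -30 in S100a8, but at 0, the start itself, in S100a9. A SOX motif, ACAAAG, was in 18.7% of windows and in that of S100a8. A TEAD motif, GGAATG, with 14.7%, and an EGR motif, GCGTGGG, with 5.04%, were in no member window. The CCAAT box was also in the S100a6 window and the GC box in that of S100a9. The S100a1, S100a13 and S100a11 windows were 61%, 59.3% and 61.7% G and C, against a median of 52.7% over all windows, and held 11, 14 and 15 CpG dinucleotides, against a median of 7. The other member windows were 49.3% to 55.3% G and C (S100b 53.7%) and held fewer CpG than the median. S100b held 3, S100a16 held 2 and 4, S100a4 and S100a9 held 2 each, S100a8 held 4 and S100a6 held 6.

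The libraries held 31404107 to 36760296 counts, and 1 library stood apart. In cKO replicate 2 the 15 skeletal muscle markers, led by Myh8, Acta1 and Mylpf, held 7.61% of the counts (0.414% to 0.604% elsewhere), so the fold change of each member is also given without it; the part of this RNA in the results was not tested. All 12 Schwann lineage markers were present, but so were the markers of every other cell type list, so presence does not test the nerve label. The 12 held 2.24% to 2.59% of the counts in WT and 0.321% to 0.559% in cKO, lowest in cKO replicate 2. Of the 12, 1 was called higher and 5 lower. The test of genotype called 8.55% of all genes higher and 10.3% lower, the share to read each list against. Among the Schwann lineage markers Sox10, the transcription factor that defines the lineage, read 270.9, 238.5 and 276.9 CPM (counts scaled to library size with TMM factors) in WT nerves and 159.6, 85.6 and 164.3 CPM in cKO nerves. Actl6a itself read 48.6, 53.3 and 46.2 CPM in the WT libraries against 42.3, 47.5 and 41.4 in the cKO libraries (log2 fold change -0.17, edgeR quasi-likelihood adjusted p = 0.243); this count covers all exons in all cells of the nerve and does not isolate the deleted part. Of other markers, 10 of 13 for macrophages, 5 of 12 for fibroblasts and 2 of 6 for perineurium were called higher in cKO. So were 1 of 10 for endothelium, 1 of 7 for cartilage and 2 of 6 for keratinocytes. Called higher too were 1 of 9 for adipocytes, 4 of 7 for erythroid cells and 3 of 11 for neurons. Itgb4, a perineurial marker, was called lower. By mean CPM, called or not, Lyz2, Mrc1 and Csf1r led for macrophages, Col3a1, Col1a1 and Col1a2 for fibroblasts, and Cldn1, Itgb4 and Slc2a1 for perineurium. Pecam1, Cdh5 and Tek led for endothelium, Col2a1, Sox9 and Col9a1 for cartilage, and Krt10, Krtdap and Sbsn for keratinocytes. Lpl, Fabp4 and Adipoq led for adipocytes, Hbb-bs, Hba-a1 and Hba-a2 for erythroid cells, and Uchl1, Nefh and Map2 for neurons. Of these leading markers, only Lyz2, Mrc1, Tek, Krtdap, Fabp4, Hbb-bs, Hba-a2 and Nefh were called higher. No muscle marker was called by edgeR (1 higher at an unadjusted p below 0.05, and 1 by DESeq2). No marker of these lists was at 0 in all libraries.

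In cKO nerves S100b and S100a1 fell, S100a11 and S100a16 rose, and the other 6 members passed no threshold in the test of all libraries. S100b, the Schwann cell protein, fell by 81.2% and S100a1 fell by 56.1%. S100a11, a partner of annexin A1, was 1.51-fold higher and S100a16, a widely expressed member, 1.49-fold higher. The groups of values did not overlap for 8 of the 10 members, 6 of them higher in cKO and 2 lower. All 10 members had enough counts to be tested, with p-values adjusted over all 18775 genes and a threshold of 0.05. Across these genes, 8.55% were called higher and 10.3% lower, and groups that did not overlap occurred in 21% of genes upward and 21.7% downward. The members' median log2 fold change was 0.43 and that of all genes 0.04, a description of 10 genes.

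**Figure D1:**
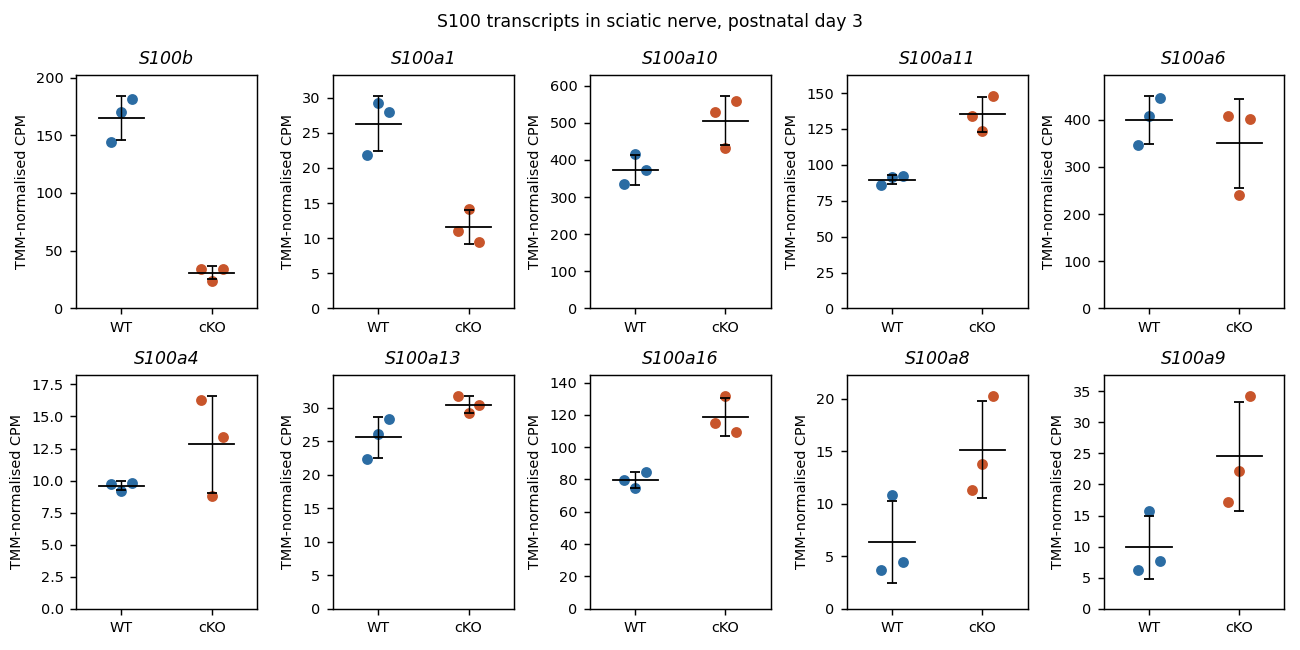
TMM-normalised CPM (vertical axis, from 0, own scale in each panel) of the 10 S100 members in 3 WT and 3 cKO sciatic nerve libraries; points are libraries, lines are means and bars are SD. S100b and S100a1 points lie lower in cKO, S100a11 and S100a16 points lie higher, and only the S100a6 and S100a4 groups overlap.

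S100b (ENSMUSG00000033208, chromosome 10, 76253853 to 76261159, plus strand) read 144.1, 169.9 and 181.3 CPM in the WT libraries against 34.5, 24.2 and 34.6 in the cKO libraries. All cKO libraries were far below all WT libraries, and the lowest, replicate 2, was the one rich in muscle markers. The means of 165.1 ± 19.0 and 31.1 ± 5.98 CPM (SD, n = 3 each) made the cKO level 5.31-fold lower. The log2 fold change was -2.41 (SE 0.17, 95% interval -2.81 to -2.01, edgeR adjusted p = 0.00058). S100b stayed below the threshold in all 6 fits that left out 1 library, with log2 fold changes of -2.50 to -2.26, the latter without cKO replicate 2. In bulk tissue, fewer Schwann cells and less S100b RNA per Schwann cell cannot be told apart.

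Because 5 of the 12 Schwann lineage markers were called lower (1 higher, 6 not called), S100b was also measured against the list. Relative to the mean log2 CPM of the 12 markers, S100b stood at -0.14, 0.05 and 0.16 in WT and at -1.82, -1.74 and -2.02 in cKO, a difference of -1.88. Against Sox10 alone the difference was -1.42. Neither pair of groups overlapped. With 3 libraries against 3, the smallest p the exact 2-sided permutation test can give is 0.1, which both reached (0.182 after adjustment over 20 such comparisons), so no ratio or share in this text could pass 0.05.

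Of 18774 genes, those whose centred log2 CPM over the 6 libraries lay nearest to S100b were Mob3b (Euclidean distance 0.234), Hmgcs1 (0.292) and Cd9 (0.320). Mob3b, of the MOB family of kinase regulators, went from 51.1 ± 3.10 to 10.1 ± 2.54 CPM. Hmgcs1, an enzyme of cholesterol synthesis, went from 1323 ± 57.7 to 282.7 ± 60.3 CPM, and Cd9, a tetraspanin, from 1458 ± 100.7 to 267.3 ± 81.9 CPM (SD, n = 3 each). Cnp, whose promoter drives the Cre, was 1413 ± 39.1 CPM in WT and 267.4 ± 78.6 CPM in cKO.

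S100a1 (ENSMUSG00000044080, chromosome 3, 90511034 to 90514392, minus strand), best known as a regulator of calcium cycling in heart and muscle, read 21.8, 29.2 and 27.9 CPM in the WT libraries against 10.96, 14.2 and 9.51 in the cKO libraries. Each cKO library lay below each WT library. The means were 26.3 ± 3.96 and 11.6 ± 2.40 CPM (SD, n = 3), 2.28-fold lower in cKO, with a log2 fold change of -1.19 (SE 0.18, 95% interval -1.63 to -0.75, edgeR adjusted p = 0.00709). It too was called in all 6 fits that left out 1 library. The highest cKO value was that of replicate 2; leaving that library out moved the log2 fold change to -1.36 (edgeR adjusted p = 1e-05).

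S100a13 (ENSMUSG00000042312, chromosome 3, 90514435 to 90524581, plus strand), which takes part in the release of Fgf1, begins 42 bases from the S100a1 gene model and runs the other way. It read 22.3, 26.1 and 28.3 CPM in the WT libraries against 31.8, 29.3 and 30.5 in the cKO libraries. The groups did not overlap, yet the log2 fold change of 0.25 (SE 0.11, 95% interval -0.01 to 0.52) missed the threshold (edgeR adjusted p = 0.160), as did that of 0.28 without cKO replicate 2 (0.0523) and of 0.16 without WT replicate 1 (0.397). The log2 ratio of S100a1 to S100a13 was therefore -0.04, 0.16 and -0.02 in WT and -1.53, -1.04 and -1.68 in cKO. The groups of ratios lay apart, with a difference of -1.45 (exact 2-sided permutation p = 0.1, the smallest possible; 0.182 adjusted over 20 comparisons).

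S100a11 (ENSMUSG00000027907, chromosome 3, 93520488 to 93526287, plus strand), which joins annexin A1 at membranes, read 85.8, 91.6 and 91.9 CPM in the WT libraries against 133.8, 123.5 and 148.1 in the cKO libraries. All cKO libraries were above all WT libraries, which lay close together. The means of 89.8 ± 3.43 and 135.2 ± 12.4 CPM (SD, n = 3) gave a log2 fold change of 0.59 (SE 0.09, 95% interval 0.37 to 0.81, edgeR adjusted p = 0.00773). The call was lost without WT replicate 1 (adjusted p = 0.0512) and without WT replicate 2 (0.0514); without cKO replicate 2 the value was 0.65 (edgeR adjusted p = 2.5e-05). Of the 50-base words of its transcripts, 41.13% also occur in the pseudogene models Gm12854, Gm7665 and Gm29240, so its reads could be split among them. Gm12854 and Gm7665 were listed at 36.0 to 64.8 and 31.1 to 44.4 CPM, Gm29240 at 0. With the counts of these copies added, the sum went from 161.7 ± 7.34 to 231.8 ± 23.5 CPM, a log2 fold change of 0.52 (SE 0.10, edgeR adjusted p = 0.0163).

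S100a16 (ENSMUSG00000074457, chromosome 3, 90537254 to 90543151, plus strand), a member found in many tissues, read 79.8, 74.6 and 84.5 CPM in the WT libraries against 114.7, 131.6 and 109.6 in the cKO libraries. Here cKO replicate 2 was the highest of all, and the groups did not overlap. From means of 79.6 ± 4.93 and 118.7 ± 11.5 CPM (SD, n = 3) the log2 fold change was 0.58 (SE 0.10, 95% interval 0.34 to 0.81, edgeR adjusted p = 0.0102). Without WT replicate 1 or WT replicate 2 the call was lost (adjusted p = 0.0588 and 0.0614). With cKO replicate 2 left out, the fit gave 0.49 (edgeR adjusted p = 0.000303) on the log2 scale.

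S100a10 (ENSMUSG00000041959, chromosome 3, 93555080 to 93564643, plus strand), the light chain that pairs with annexin A2 and no longer binds calcium, read 334.3, 415.3 and 372.2 CPM in the WT libraries against 529.4, 430.8 and 557.7 in the cKO libraries. The lowest cKO library, replicate 2, was just above the highest WT library. The log2 fold change of 0.44 (SE 0.14, 95% interval 0.11 to 0.76) was not called (edgeR adjusted p = 0.0697). Without cKO replicate 2 it was 0.54 (edgeR adjusted p = 0.000633).

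S100a6 (ENSMUSG00000001025, chromosome 3, 90612882 to 90624181, plus strand), also named calcyclin, read 346.5, 407.5 and 447.0 CPM in the WT libraries against 407.6, 241.6 and 401.6 in the cKO libraries. The groups overlapped, with cKO replicate 2 alone well below the rest. The log2 fold change of -0.19 (95% interval -0.70 to 0.32, edgeR adjusted p = 0.552) became 0.014 without that library (edgeR adjusted p = 0.930).

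S100a4 (ENSMUSG00000001020, chromosome 3, 90603771 to 90606045, plus strand), which binds non-muscle myosin and is frequent in fibroblasts and macrophages, read 9.77, 9.21 and 9.81 CPM in the WT libraries against 16.3, 8.78 and 13.4 in the cKO libraries. WT values were nearly equal, and cKO replicate 2 lay below them while the other cKO libraries lay above. The log2 fold change of 0.42 (95% interval -0.10 to 0.94) was not called (edgeR adjusted p = 0.220), while it was 0.63 without cKO replicate 2 (edgeR adjusted p = 0.00135) and 0.21 without cKO replicate 1 (0.483). Of the exonic bases of S100a4, 51.71% are also annotated to Gm42674 on the same strand, which held 2 counts in 1 WT library and 0 in the other libraries, and per the file header no option to count reads of overlapping genes was set. Fibroblast markers summed to 35811 to 36144 CPM in WT and 36348 to 46617 CPM in cKO, lowest among cKO in replicate 2, and macrophage markers to 770.1 to 896.4 and 1258 to 1847 CPM, again lowest there; their part in the S100a4 values was not tested.

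The calls upward thus moved with single libraries, while S100b and S100a1 were called lower in each of the 6 fits that left out 1 library. Without cKO replicate 2, 4 members were higher (S100a10, S100a11, S100a16 and S100a4) and 2 lower, in a fit that called 17.8% of all genes higher and 17.6% lower. Without WT replicate 1, no member was higher and 2 were lower, against 2.33% and 4.3% of genes; S100a11 and S100a16 are the members lost. Without WT replicate 2, S100a8 and S100a9 were the 2 called higher and 2 were lower, against 2.5% and 4.26%. DESeq2 on all libraries called 5 members higher (S100a10, S100a11, S100a16, S100a8 and S100a9) and the same 2 lower, against 10.4% and 11.3% of its genes.

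**Figure D2:**
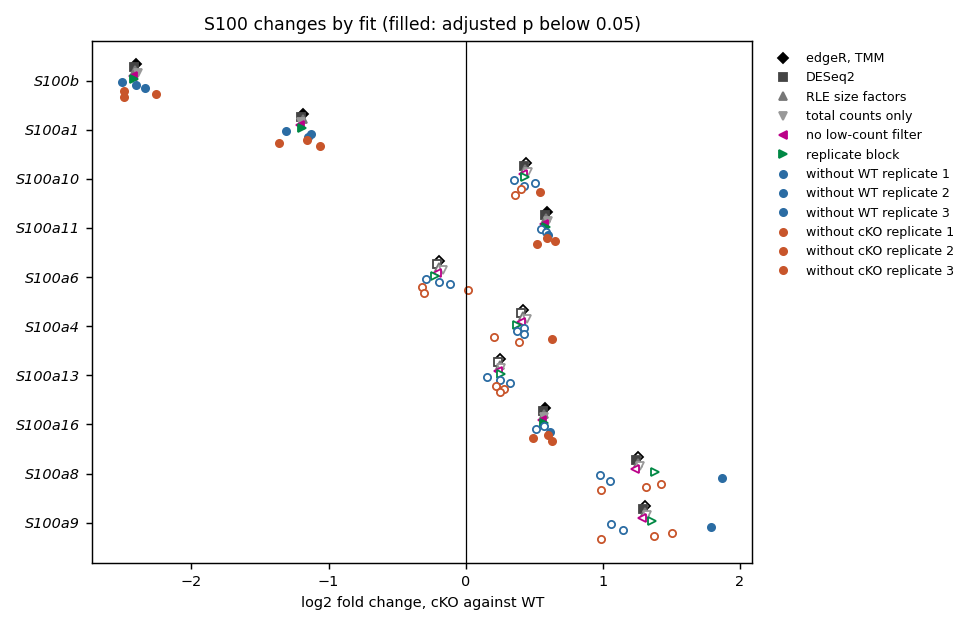
log2 fold change (horizontal axis, cKO against WT) of each member under edgeR with TMM factors, 5 other settings and 6 fits that leave out 1 library; filled marks have an adjusted p below 0.05. Marks of S100b and S100a1 are filled in every fit shown, those of S100a11 and S100a16 are open without WT replicate 1 or 2, and S100a6 crosses 0 without cKO replicate 2.

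S100a8 (ENSMUSG00000056054, chromosome 3, 90668978 to 90670035, plus strand) and S100a9 (ENSMUSG00000056071, chromosome 3, 90692632 to 90695721, minus strand), the calprotectin pair, lie 22596 bases apart and were higher in each cKO library than in each WT library, without passing the threshold. S100a8 read 3.70, 10.9 and 4.48 CPM in the WT libraries against 11.4, 13.8 and 20.3 in the cKO libraries (log2 fold change 1.26, SE 0.46, 95% interval 0.13 to 2.38, edgeR adjusted p = 0.114). S100a9 read 6.31, 15.7 and 7.74 CPM in the WT libraries against 17.2, 22.2 and 34.2 in the cKO libraries (log2 fold change 1.31, SE 0.42, 95% interval 0.26 to 2.35, edgeR adjusted p = 0.0863). For both genes WT replicate 2 was the highest WT library and cKO replicate 3 the highest of all. Without WT replicate 2 the log2 fold changes were 1.87 and 1.79 (edgeR adjusted p = 0.0249 and 0.0382), and without cKO replicate 2 they were 1.32 and 1.37 (0.230 and 0.189). DESeq2 gave adjusted p = 0.0114 for S100a8 and 0.00333 for S100a9. The log2 ratio of S100a9 to S100a8 was 0.77, 0.53 and 0.79 in WT and 0.60, 0.68 and 0.76 in cKO, a difference of -0.02 (exact 2-sided permutation p = 0.8).

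Markers of neutrophils, the cells richest in calprotectin, were read beside the pair. The 18 markers summed to 27.4, 54.0 and 29.1 CPM in WT and to 52.2, 63.6 and 114.3 CPM in cKO, so that WT replicate 2 and cKO replicate 3 were again the highest of their groups. Of the cKO 3 sum, 39.3 CPM came from Mmp9, a protease also made by other cells; without Mmp9 the sums were 25.04, 50.4 and 26.9 CPM in the WT libraries against 47.6, 52.4 and 74.99 in the cKO libraries. Among 16 tested markers, 4 were called higher (Ctsg, Ltb4r1, Itgam and Cxcr2) and 0 lower (7 and 0 at an unadjusted p below 0.05, 7 and 0 by DESeq2), against 8.55% and 10.3% of all genes, with a median log2 fold change of 0.92. Of the 4, Ctsg, Ltb4r1 and Cxcr2 were low, at 0.219 to 2.20 CPM over the libraries, and Itgam read 5.83 to 11.7 CPM. Granule genes such as Ngp (2.19, 10.8 and 3.34 CPM in the WT libraries against 9.23, 7.31 and 8.85 in the cKO libraries) and Ltf (0.902, 4.23 and 1.67, then 7.59, 5.31 and 6.02 CPM) were likewise highest in WT replicate 2 within WT. Within cKO, unlike S100a8 and S100a9, Ngp and Ltf were highest in replicate 1. Elane, Prtn3, Mpo, Camp, Lcn2, Mmp8, Retnlg, Csf3r and Padi4 were tested and not called, and Ly6g and Fcnb, at 0.055 to 0.514 and 0.082 to 0.345 CPM, had too few counts. Erythroid markers summed to 2722 to 3936 CPM in WT and 6739 to 21847 CPM in cKO. The part of these cells, and of the macrophages named with S100a4, in the S100a8 and S100a9 values was not tested.

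**Figure D3:**
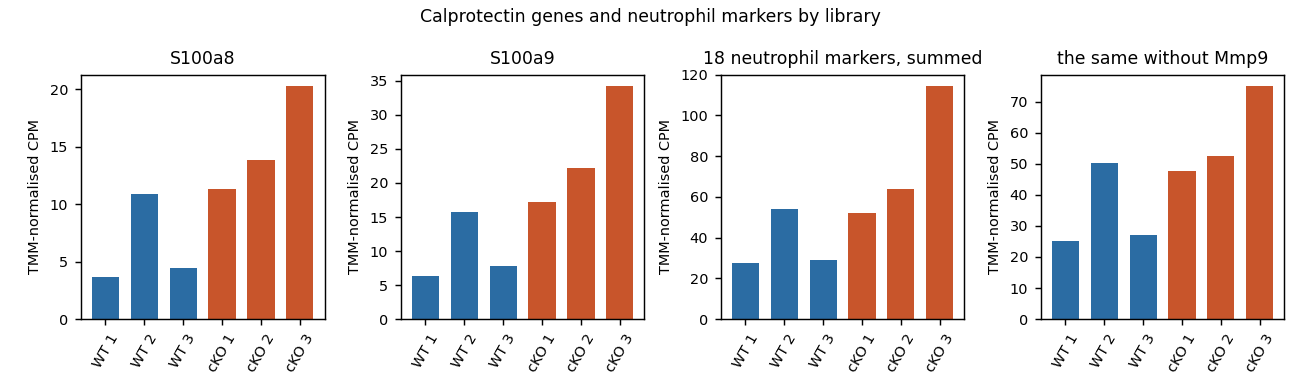
TMM-normalised CPM (vertical axes, from 0) of S100a8, S100a9, the sum of 18 neutrophil markers and that sum without Mmp9, 1 bar per library (WT blue, cKO orange). In all 4 panels WT replicate 2 is the highest WT bar and cKO replicate 3 the highest bar.

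Levels were compared between members only per kilobase of exon. S100a11 held 54.8% to 59.0% of the counts summed with Gm12854 and Gm7665, so its level and rank here may be too low. Reads in the 51.71% of S100a4 exonic bases shared with Gm42674 may be uncounted, so its level may be too low as well. In WT nerve S100a10 stood highest at 308.5 ± 33.4 CPM per kilobase, followed by S100a6 at 292.9 ± 37.05, and their ranges overlapped (SD, n = 3). S100a11 at 175.7 ± 6.72 and S100b at 111.3 ± 12.8 came next, each apart from its neighbours. S100a16 at 49.2 ± 3.05 stood above S100a1 at 37.9 ± 5.71 and S100a13 at 35.8 ± 4.24, whose ranges overlapped. S100a9, S100a4 and S100a8, at 19.0 ± 9.68, 16.4 ± 0.573 and 9.14 ± 5.66 CPM per kilobase, were lowest; the S100a9 range overlapped those of both others, while S100a4 (15.78 to 16.81) lay just above S100a8 (5.33 to 15.64). In cKO nerve S100b, at 20.96 ± 4.03 CPM per kilobase, ranged with S100a4 and S100a8, and S100a1 at 16.6 ± 3.46 had the lowest mean of the 10.

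S100b made up 10.3%, 10.2% and 11.04% of the summed S100 transcripts per kilobase in WT and 1.89%, 1.61% and 1.78% in cKO, a fall from 10.5% to 1.76% on average (exact 2-sided permutation p = 0.1). The share of S100a1 went from 3.58% to 1.45% and that of S100a6 from 27.7% to 21.4%. The share of S100a10 went from 29.2% to 35.3% and that of S100a11 from 16.7% to 22.5%, and none of these groups overlapped (exact 2-sided permutation p = 0.1 each, 0.182 adjusted over 20). The summed level of all 10 members was 940.5, 1121 and 1106 CPM per kilobase in WT and 1228, 1010 and 1309 in cKO, overlapping groups whose means differed by 126.7 (exact 2-sided permutation p = 0.3). That difference was 212.7 without cKO replicate 2, where the groups lay apart (exact 2-sided permutation p = 0.1, the smallest possible), 68.99 without WT replicate 1 and 63.5 without cKO replicate 3. Without S100b the summed level was 944.6 ± 88.4 and 1162 ± 150.5 CPM per kilobase (SD, n = 3 each; exact 2-sided permutation p = 0.2), again overlapping groups. All these shares and sums carry the limits of the S100a11 and S100a4 counts given with the levels.

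**Figure D4:**
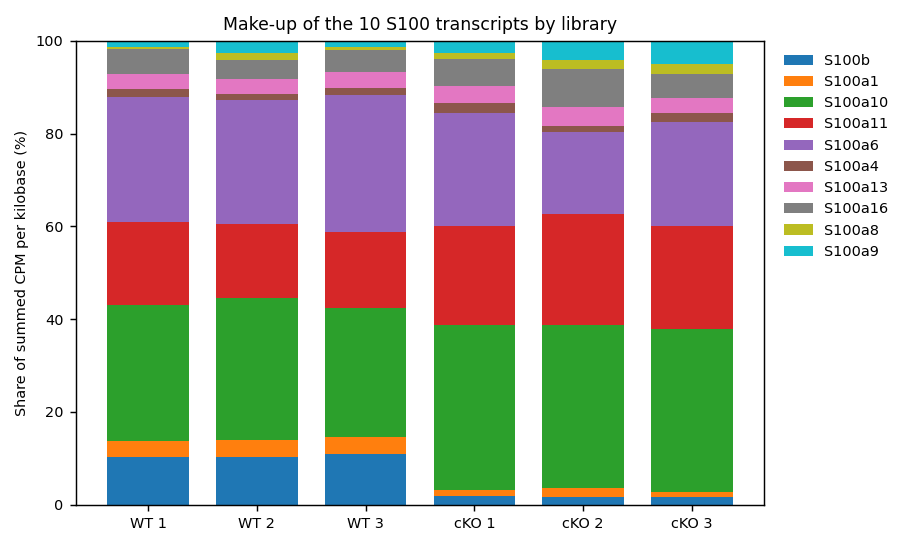
Share of each member in the summed CPM per kilobase of the 10 S100 genes (vertical axis, percent), 1 stacked bar per library. The S100b band is 10.2% to 11.04% of WT bars and 1.61% to 1.89% of cKO bars, while the S100a10 and S100a11 bands are wider in each cKO bar than in each WT bar.

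Of the other S100 genes, 7 were in the table and 4 were tested: edgeR called 0 higher (0 at an unadjusted p below 0.05, 0 by DESeq2) and 2 lower. S100a3 (chromosome 3, 90560578 to 90602702), a member known from hair, read 14.01, 12.3 and 10.96 CPM in the WT libraries against 5.65, 2.62 and 4.17 in the cKO libraries. Its groups lay apart, with a log2 fold change of -1.58 (SE 0.27, edgeR adjusted p = 0.0102; 0.0558 without WT replicate 1), and of -1.34 without cKO replicate 2. S100a2 (90590247 to 90591508, inside the S100a3 span) had 16, 13 and 23 counts in WT and 6, 1 and 2 in cKO, with a log2 fold change of -2.36 (SE 0.55, edgeR adjusted p = 0.0275), and was called in 2 of 6 fits that left out 1 library, those without cKO replicate 1 or 2 (adjusted p = 0.0170 and 0.0117; 0.0696 to 0.108 in the other 4). S100a14 (log2 fold change 0.54, edgeR adjusted p = 0.527) and S100a7a (0.28, adjusted p = 0.724) were not called. S100a5, S100g and S100z had at most 4 counts in a library. Of the fused-type genes, large skin proteins with an S100 domain, 2 of 7 were tested and edgeR called 0 (0 at an unadjusted p below 0.05, 0 by DESeq2). Tchh had 561, 181 and 214 counts in WT and 178, 109 and 187 in cKO (log2 fold change -0.93, edgeR adjusted p = 0.227), with WT replicate 1 alone high. Flg had 0, 8 and 8, then 10, 12 and 12 counts (log2 fold change 1.21, edgeR adjusted p = 0.277). Crnn reached 20 counts in WT replicate 1 and at most 4 elsewhere, Flg2, Hrnr and Tchhl1 had at most 2, and Rptn was listed at 0.

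**Figure D5:**
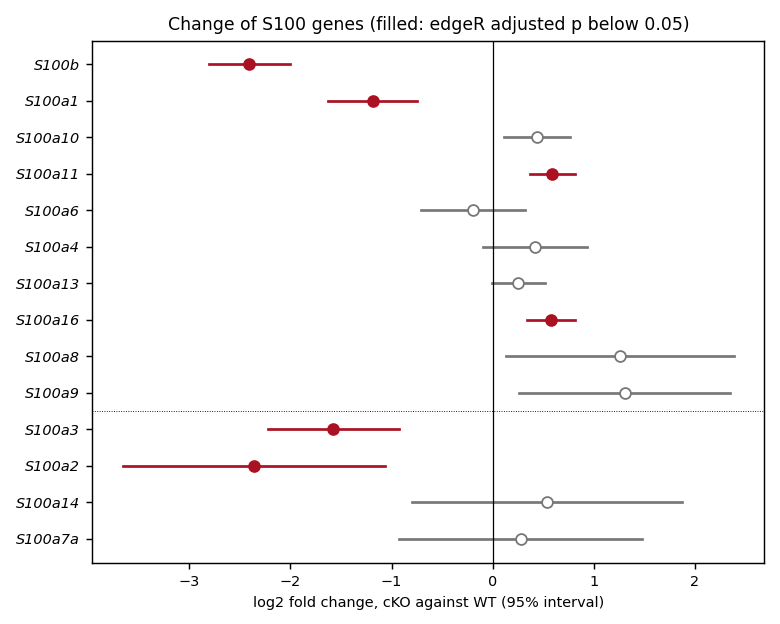
log2 fold change (horizontal axis, cKO against WT) with its 95% interval for the 10 members and, under the dotted line, the 4 other S100 genes tested; filled red marks have an edgeR adjusted p below 0.05. S100b, S100a1, S100a3 and S100a2 are filled on the lower side, S100a11 and S100a16 on the higher side.

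The chromosome 3 interval that spans the 9 members holds 121 annotated genes, of which 10 others were tested, with 0 called higher by edgeR (0 at an unadjusted p below 0.05, 0 by DESeq2) and 3 lower, against 8.55% and 10.3% of all genes. The latter were S100a3, S100a2 and Gm4202, which went from 101.2 ± 2.16 to 72.5 ± 2.66 CPM (SD, n = 3; log2 fold change -0.48, edgeR adjusted p = 0.00661). Of the members and other genes tested there, S100a1, S100a3, S100a2 and Gm4202 were called lower and S100a16 and S100a11 higher.

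Among partners and receptors of S100 proteins, 34 of 36 were tested, 3 were called higher and 3 lower, near the 8.55% and 10.3% of all genes, and their median log2 fold change was 0.19 against 0.04 for all genes. Fgf1, the growth factor exported with S100a13, fell from 123.7 ± 5.04 to 64.1 ± 5.68 CPM (log2 fold change -0.95, edgeR adjusted p = 0.00151). Ndrg1, mutated in a hereditary demyelinating neuropathy, fell from 477.3 ± 27.9 to 172.2 ± 56.3 CPM (log2 fold change -1.47, adjusted p = 0.0098), and Trpv6, a calcium channel carried by S100a10 and annexin A2, fell from 1.93 to 0.469 CPM (log2 fold change -2.02, adjusted p = 0.0063). Tlr4, a receptor of calprotectin, rose from 13.5 to 24.6 CPM (log2 fold change 0.86, edgeR adjusted p = 0.0121). Anxa1, the partner of S100a11, rose from 158.5 to 247.8 CPM (log2 fold change 0.64, adjusted p = 0.0319), and Capzb, a subunit of actin capping protein, from 167.7 to 263.0 CPM (log2 fold change 0.65, adjusted p = 0.0234). The log2 ratio of S100a11 to Anxa1 differed by -0.04 between the groups (exact 2-sided permutation p = 0.9). Without cKO replicate 2, 12 partners were called higher and 4 lower, in a fit that called 17.8% and 17.6% of genes. Anxa2 read 1014, 1095 and 998.7 CPM in the WT libraries against 1342, 1040 and 1443 in the cKO libraries and was not called (log2 fold change 0.30, edgeR adjusted p = 0.192). The log2 ratio of S100a10 to Anxa2 was 0.15 higher in cKO, with groups that did not overlap (exact 2-sided permutation p = 0.1). The receptor Ager read 23.1, 20.8 and 25.1 CPM in the WT libraries against 23.0, 6.45 and 11.1 in the cKO libraries, overlapping groups with no call (log2 fold change -0.76, edgeR adjusted p = 0.278).

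Other EF-hand genes gave a wider view of calcium sensors. Of 50, 43 were tested, 8 were called higher and 3 lower (8.55% and 10.3% of all genes), with a median log2 fold change of 0.14. Without cKO replicate 2, 13 were called higher and 7 lower (17.8% and 17.6% of all genes). Efhd1, a mitochondrial calcium sensor, fell from 171.5 to 78.3 CPM (log2 fold change -1.13, edgeR adjusted p = 0.0026), and Chp1, a cofactor of sodium-proton exchangers, fell from 169.7 to 102.7 CPM (-0.72, adjusted p = 0.0081). Lcp1, the actin-bundling plastin of leukocytes, rose from 43.9 to 73.4 CPM (log2 fold change 0.74, edgeR adjusted p = 0.0020), and Efhd2, an actin-binding protein frequent in immune cells, from 39.0 to 63.8 CPM (0.71, adjusted p = 0.0047). Hpcal1, a neuronal calcium sensor, rose from 20.3 to 34.1 CPM and Necab1, a neuronal EF-hand protein, from 3.63 to 7.73 CPM (log2 fold changes 0.75 and 1.09, edgeR adjusted p = 0.0033 and 0.0035). Of the markers tested, 10 of 13 for macrophages, 4 of 16 for neutrophils and 3 of 11 for neurons were called higher in cKO, and the part of these cells in the values was not tested.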

How the data were processed

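RNA of 6 sciatic nerve libraries (3 WT, 3 cKO) was counted per gene. The values are counts of fragments, which the authors deposited as 1 table without normalization. Per the file headers, featureCounts 1.6.1 counted exons of Ensembl GRCm38 release 95 from pairs with both ends aligned, at a mapping quality of at least 20 and without strand, so reads of antisense genes cannot be told apart. The other deposited column, per the file headers, is exonic length in bases. The submitters' processing notes also name Subread 2.0, DESeq2 1.3 and the builds mm10 and GRCm38, and settings of the aligner were not given in the sources used here. Depth was 31404107 to 36760296 counts per library, and no 2 libraries of a group agreed within counting noise (chi-square statistic over degrees of freedom 8.92 to 346). Symbols matched 54723 of 54838 identifiers, with RefSeq tables of build GRCm38.p6 for start-site windows.

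Sample titles gave the groups and replicate numbers. Testing used edgeR 4.0.16 in R 4.3.3: filterByExpr (minimum count 10), TMM factors and the 2-sided quasi-likelihood test on 6 libraries (4 residual degrees of freedom), Benjamini-Hochberg adjusted over 18775 genes, with a gene called below 0.05. The code was tested on simulated data. CPM were computed here with TMM factors and divided by exonic length only where levels of genes were compared. Ratios, shares and sums were tested by exact permutation of libraries. The set of member names and all gene lists were drawn up with earlier results of these data known, and no p was adjusted over a list. Named genes were all members and other S100 genes with a count; up to 6 called genes of smallest p in the partner and EF-hand lists; the 3 highest markers of each cell type list and all neutrophil markers; the 3 nearest genes to S100b; and the called genes of the chromosome 3 interval. The pseudogene copies, Gm42674, Cnp, Actl6a, Sox10, Anxa2 and Ager, are outside that rule. Alternatives were DESeq2 1.42.0, RLE factors, total counts, no low-count filter, a replicate block and leaving out each library; ratios of members to each other, Anxa1 or Anxa2, the total without S100b and the sum of S100a11 with its copies were added after seeing the data. Some Schwann lineage markers are not reported here.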

Additional observations from a re-analysis of the deposited data

How the results depend on the processing

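S100b and S100a1 kept their direction and call under DESeq2, RLE factors, total counts, no low-count filter, the replicate block and each of the 6 fits without 1 library. Leaving out 1 library moved the other counts of calls, with all genes higher in cKO from 449 to 3425 (1605 with all libraries) and lower from 790 to 3398 (1929), S100 members higher from 0 to 4 (2) and lower 2 throughout, other S100 genes called from 0 to 2 (2), partners and receptors from 3 to 16 (6), EF-hand genes from 7 to 20 (11) and genes of the chromosome 3 interval from 1 to 4 (3). The highest of the counts of all genes, members higher, partners and EF-hand genes came without cKO replicate 2, and the cause was not tested. The log2 fold change of S100a6 (-0.19) ranged from -0.32 to 0.014, the latter without cKO replicate 2. The fall of S100b relative to Schwann lineage markers ranged from -1.97 to -1.80 and that of its share from -8.92 to -8.51 percentage points. DESeq2 called 5 members higher, and total counts alone called 1161 of all genes lower. Same-numbered libraries did not deviate together (correlations -0.23 to -0.08). Deviations from a mean of 3 libraries per group cannot exclude a pairing, and the labels state none. With the replicate block 744 genes were higher and 1108 lower, and 1 other S100 gene and 7 EF-hand genes were called. In that edgeR fit S100a2 had an adjusted p of 0.0554, and the same 4 members (S100b, S100a1, S100a11, S100a16) stayed called. S100a2 was tested on 1 to 23 counts per library, and S100a5, S100g and S100z had too few counts to test.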
